A study of Mus musculus with 3 samples.

Results

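The Rab genes encode small GTPases of membrane traffic, and 59 of the 17886 genes analysed belong to this family. They were taken by name: a gene was a member if its symbol is Rab followed by a number, with at most 1 letter and 1 further digit, among probe sets (groups of short oligonucleotides that read 1 transcript) that name a single gene. The 59 genes were read by 129 probe sets, 22 of them by 1 probe set and 37 by 2 or more, and the probe set with the highest mean signal stood for its gene.

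A Rab protein cycles between a GTP-bound form that sits on a membrane and recruits effectors, and a GDP-bound form that is extracted into the cytosol by GDP dissociation inhibitors. Exchange factors load GTP and GTPase-activating proteins (GAPs) end the active state, and a lipid added to the C-terminus by geranylgeranyl transferase anchors the protein. Each Rab marks a particular compartment, and in dendritic cells (DCs) the endocytic, recycling and secretory Rabs serve antigen uptake, delivery of MHC molecules and cytokine release.

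Expression was measured in wild-type (WT) mouse bone marrow DCs grown for 5 days in GM-CSF (granulocyte-macrophage colony-stimulating factor) and separated in a cell sorter by surface PDL2, which binds the inhibitory receptor PD-1. The 3 groups were PDL2- cells left untreated, PDL2- cells stimulated with lipopolysaccharide (LPS, a bacterial ligand of a Toll-like receptor) at 100 ng/ml, and PDL2+ cells left untreated. Mouse strain, age and number and the duration of LPS are not given in the sources used here. With 1 array per group, values carry no replicate check, groups could not be tested against each other, and no p-value is given.

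Pdcd1lg2, which encodes PDL2, had log2 signals of 8.40, 9.44 and 11.73 in PDL2- untreated, PDL2- LPS and PDL2+ cells, highest in the cells sorted for it. All 5 DC markers checked (Itgax, H2-Ab1, Cd74, Flt3 and Zbtb46) were above the floor on every array. In PDL2+ against PDL2- untreated cells Zbtb46 was 5.15-fold and Flt3 3.71-fold higher, Itgax was 3.18-fold lower, H2-Ab1 was within 2-fold, and Cd74 had the same value (14.33) on all arrays. The floor, a log2 signal of 5.58, is the median over the normalized arrays, and anything below it was set to it before subtraction. Values are quantile-normalized log2 signals, and a gene entered a comparison when at least 1 of its 2 arrays was above the floor. A gene was called higher or lower at a difference of 2-fold or more. Signals of different genes come from different probes and were not compared with each other. For lists of cell type markers they were added up on a linear scale, where the brightest probe sets weigh most. In such bulk samples, fewer cells of a type and less RNA per cell cannot be told apart.

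Of the 59 Rab genes, 45 were above the floor on all 3 arrays, 5 on 1 or 2 arrays and 9 on none. After LPS, 5 of 48 measured Rab genes were called higher (10.4%) and 4 lower (8.33%), against 9.17% higher and 13.8% lower (23% in either direction) among all 11000 genes measured. With the deposited values the split was 3 higher and 4 lower. In PDL2+ against PDL2- untreated cells, 7 of 50 were higher and 7 lower (14% each), against 10.1% and 13% (23% in either direction) of 10926 genes. In PDL2+ untreated against PDL2- LPS cells, 5 of 49 were higher (10.2%) and 4 lower (8.16%), against 15.6% and 12.6% (28.2% in either direction) of 11042 genes. The members' shares lay near those of all genes in the PDL2 comparison and below them for lower calls after LPS and for both directions in the last comparison, and no difference of shares was tested. The median log2 difference of the members was 0.03, 0.03 and -0.08 in these comparisons, beside 0.02, 0.01 and -0.05 over all measured genes. Keeping the deposited scale moved the median of all genes after LPS to -0.09, so an LPS difference of a single gene is read against that shift.

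**Figure D1:**
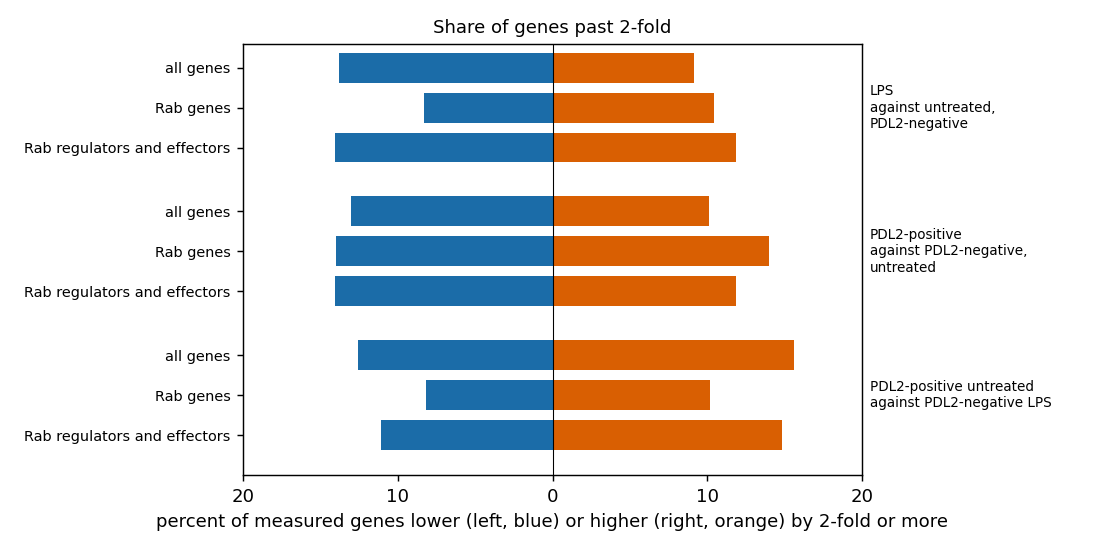
Bars give the percent of measured genes past 2-fold in each of the 3 comparisons, lower to the left and higher to the right, for all genes, the Rab genes, and genes of Rab regulators and effectors. The bars of the Rab genes reach 14% on both sides in PDL2+ against PDL2- untreated cells, where the bars of all genes reach 13% and 10.1%.

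Across the 3 arrays, 18 Rab genes were past 2-fold in at least 1 comparison. The matching count over all genes was not made, so these 18 only say which genes are described. The largest differences were those of Rab7b and Rab19, which were low in PDL2+ cells, and of Rab38 and Rab27a, which were high there. The one measure of error here is technical: how far a gene's 2 brightest probe sets lie apart. Expressed per probe set as a robust SD of log2 differences, it was 0.29 over 4212 genes for LPS, 0.21 over 4243 genes for PDL2 and 0.31 over 4121 genes for PDL2+ against LPS. Calls close to the threshold, such as Rab11a and Rab1b in the PDL2 comparison, lie within this spread of genes that were not called, such as Rab13 (0.97).

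**Figure D2:**
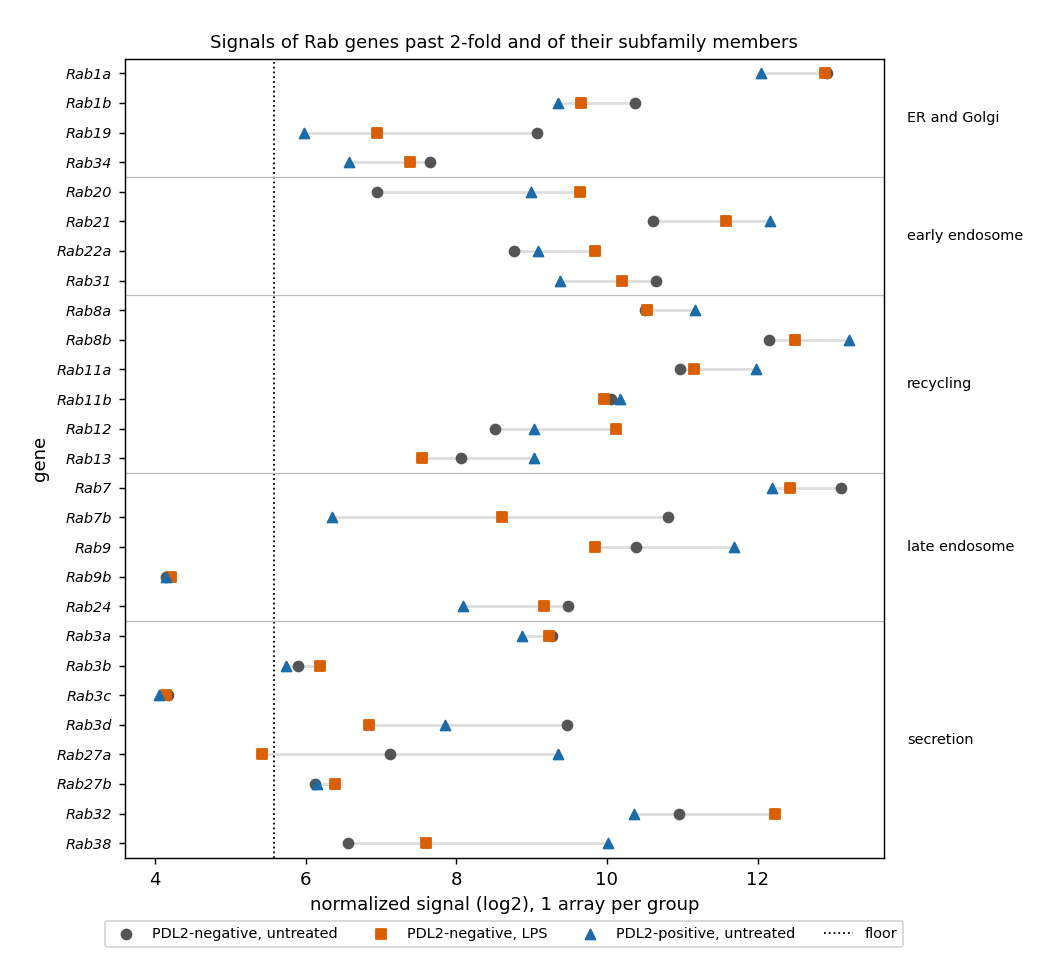
Points give the normalized log2 signal on each array (1 per group) for the 18 Rab genes past 2-fold and their subfamily members, 27 genes in all, grouped by route, with a dotted line at the floor of 5.58. Rab7b and Rab19 lie farthest right in PDL2- untreated cells and farthest left in PDL2+ cells, while Rab38 lies farthest right in PDL2+ cells.

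Early endosomal Rab genes included the member with the largest positive difference after LPS. Of 7 measured genes of this route, 2 were higher after LPS and none lower, beside 9.17% and 13.8% of all genes, and 1 of the 2 is Rab22a, whose probe sets disagreed. In PDL2+ cells 2 were higher and 1 lower, beside 10.1% and 13% of all genes. Rab20, whose product acts in phagosome and endosome maturation, had log2 signals of 6.94 in PDL2- untreated, 9.64 in LPS and 9.0 in PDL2+ cells. It was thus low in untreated PDL2- cells alone, 6.49-fold higher after LPS and 4.15-fold higher in PDL2+ cells. In the LPS comparison 252 of the 11000 genes lay higher. Rab21, which works on early endosomes in integrin traffic, gave 10.61, 11.59 and 12.16. It was 2.94-fold higher in PDL2+ cells and 1.97-fold higher after LPS, just short of the threshold there, and its other probe set gave differences of 0.96 and 1.38. Rab21 and Rab20 were both lowest in untreated PDL2- cells.

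The promoters of Rab20 and Rab21 are shown because both genes were higher on both other arrays and both windows hold the E-box CACGTG, a palindrome that reads alike on both strands. Each window of 300 bases spans a start site of its gene on build GRCm38.p6, with most of it upstream of that site. The windows lie at chr8:11478591-11478890 (minus strand) for Rab20 and chr10:115315542-115315841 (minus strand) for Rab21. They are given 5′ to 3′ on the gene's strand, with motif matches in capitals. The Rab21 window lies inside the gene, which starts at 115317419 in RefSeq, so it spans a further start site.
Rab20: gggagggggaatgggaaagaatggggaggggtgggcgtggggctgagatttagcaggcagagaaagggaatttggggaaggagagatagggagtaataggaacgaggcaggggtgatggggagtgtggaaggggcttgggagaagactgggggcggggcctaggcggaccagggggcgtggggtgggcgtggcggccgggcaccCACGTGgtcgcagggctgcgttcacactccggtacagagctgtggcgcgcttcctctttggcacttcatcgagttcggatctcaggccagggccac
Rab21: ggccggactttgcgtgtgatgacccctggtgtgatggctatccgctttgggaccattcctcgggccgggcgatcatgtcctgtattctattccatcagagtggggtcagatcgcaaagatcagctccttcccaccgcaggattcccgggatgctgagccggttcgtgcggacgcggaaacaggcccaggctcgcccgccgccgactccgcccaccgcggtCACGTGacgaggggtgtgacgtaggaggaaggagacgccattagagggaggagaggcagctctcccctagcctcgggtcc
Counted from the start site of the window, the first base of the match lies at -46 in Rab20 and -30 in Rab21. Promoters were found for 48 of the 59 Rab genes, with 60 windows in all. CACGTG was present in windows of 6 Rab genes (Rab5a, Rab20, Rab21, Rab23, Rab24 and Rab27a), in 10% of the members' windows against 7.15% of 32851 windows of all genes. Rab24 was lower in PDL2+ cells, so the matches did not go with 1 direction.

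Rab22a, which acts in recycling of cargo such as MHC class I from early endosomes, had signals of 8.77, 9.84 and 9.08 and was 2.11-fold higher after LPS by its brightest probe set. Its other 3 measured probe sets gave LPS differences of -0.09, -0.06 and -0.93, and the mean of its probe sets gave -0.055, so the direction for Rab22a is unsettled. Rab31, an early endosome and trans-Golgi Rab, gave 10.65, 10.20 and 9.38 and was 2.41-fold lower in PDL2+ cells, with -1.01 by its second probe set, which gave -1.36 against LPS cells. The Rab5 genes, whose products control entry into and fusion of early endosomes, differed little. Rab5a, Rab5b and Rab5c had log2 differences of 0.47, 0.30 and 0.38 after LPS and 0.20, 0.12 and 0.40 in PDL2+ cells, all positive and none past 2-fold. Rab17 was at the floor on all 3 arrays.

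Of 12 measured recycling and plasma membrane Rab genes, 1 was higher after LPS and 2 in PDL2+ cells, near the 9.17% and 10.1% of all genes, and none was lower in either comparison, beside 13.8% and 13% of all genes. Rab12, which directs cargo from recycling endosomes to lysosomes, had signals of 8.51, 10.12 and 9.03. It was 3.06-fold higher after LPS, and its second probe set, with signals of 5.70, 6.64 and 6.90, gave 0.94 after LPS and 1.21 in PDL2+ cells. In PDL2+ against LPS cells the brightest probe set of Rab12 gave -1.09 and the second 0.26, so that direction is not settled.

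Rab8b, which carries vesicles from the Golgi to the plasma membrane, gave 12.15, 12.49 and 13.22 and was 2.10-fold higher in PDL2+ cells. With the mean of its probe sets, 1 of which lay below the floor throughout, the difference was 0.42. Its paralog Rab8a gave 10.51, 10.54 and 11.17, a difference of 0.65 in PDL2+ cells and of 0.02 after LPS. Both Rab8 genes were therefore highest in PDL2+ cells, with only Rab8b past the threshold.

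Rab11a, the marker Rab of recycling endosomes, had signals of 10.97, 11.16 and 11.98, and was 2.01-fold higher in PDL2+ cells, or 0.73 on the log2 scale by its second probe set. Its paralog Rab11b gave 10.05, 9.96 and 10.18, a difference of 0.13 in PDL2+ cells, while a dimmer probe set gave -1.15 after LPS. Whether the paralogs Rab11a and Rab11b differ in response was not tested. Rab13, which acts in delivery to cell junctions, gave 8.07, 7.55 and 9.04 and was 2.80-fold higher in PDL2+ than in LPS cells, with intermediate signal in untreated PDL2- cells. Rab10, an exocytic Rab that also serves Toll-like receptor delivery, gave 10.84, 11.49 and 11.80, differences of 0.64 after LPS and 0.95 in PDL2+ cells that were short of 2-fold. Its other probe sets gave 2.13 and 0.80 after LPS and 1.46 and 1.08 in PDL2+ cells, so Rab10 would be called higher in PDL2+ cells by either of them. Rab14 differed by -0.55 and -0.52 by its brightest probe set, but by 0.94 and 1.10 by a dimmer one, so its direction depended on the probe set. Rab4b, Rab15, Rab25 and Rab35 differed by 0.25 or less in size in both comparisons, and Rab4a was at the floor. The deposited value of Rab25 was the same on all 3 arrays, as it was for Rab29, so their differences near 0 carry no information.

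Late endosomal Rab genes held the largest negative difference of the family. Rab7b, a Rab of late endosomes and the trans-Golgi network known to limit Toll-like receptor signalling in macrophages, had signals of 10.81 in PDL2- untreated, 8.61 in LPS and 6.36 in PDL2+ cells. It was 21.9-fold lower in PDL2+ cells, 4.60-fold lower after LPS and 4.76-fold lower in PDL2+ than in LPS cells. In the PDL2 comparison 69 of 10926 genes lay lower. A second probe set of Rab7b gave -2.49 after LPS and -3.34, a bound at the floor, in PDL2+ cells, and a further one, just above the floor in untreated cells, gave -0.03 in both. In PDL2+ against LPS cells the second probe set gave -0.85, again a bound. Raising the floor to the 75th percentile gave -0.80, also a bound, because the PDL2+ signal lay below that floor. Both bounds were short of 2-fold, but a bound gives only the least size of a difference.

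Rab7, the Rab that drives fusion of late endosomes with lysosomes, gave 13.11, 12.43 and 12.19, with a second probe set in the same direction. Its differences of -0.68 and -0.91 were short of 2-fold. Rab9, which returns receptors from late endosomes to the Golgi, went the other way in PDL2+ cells. Its signals were 10.38, 9.85 and 11.68, which put it 2.47-fold higher in PDL2+ than in PDL2- untreated cells and 3.57-fold higher than in LPS cells. Only 1 probe set reads Rab9. Rab24, a Rab linked to autophagy, gave 9.49, 9.16 and 8.09 and was 2.63-fold lower in PDL2+ cells, with -1.53 by its second probe set. Against LPS cells Rab24 differed by -1.07, or -0.96 with the deposited values. Rab9b was at the floor on all 3 arrays.

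**Figure D3:**
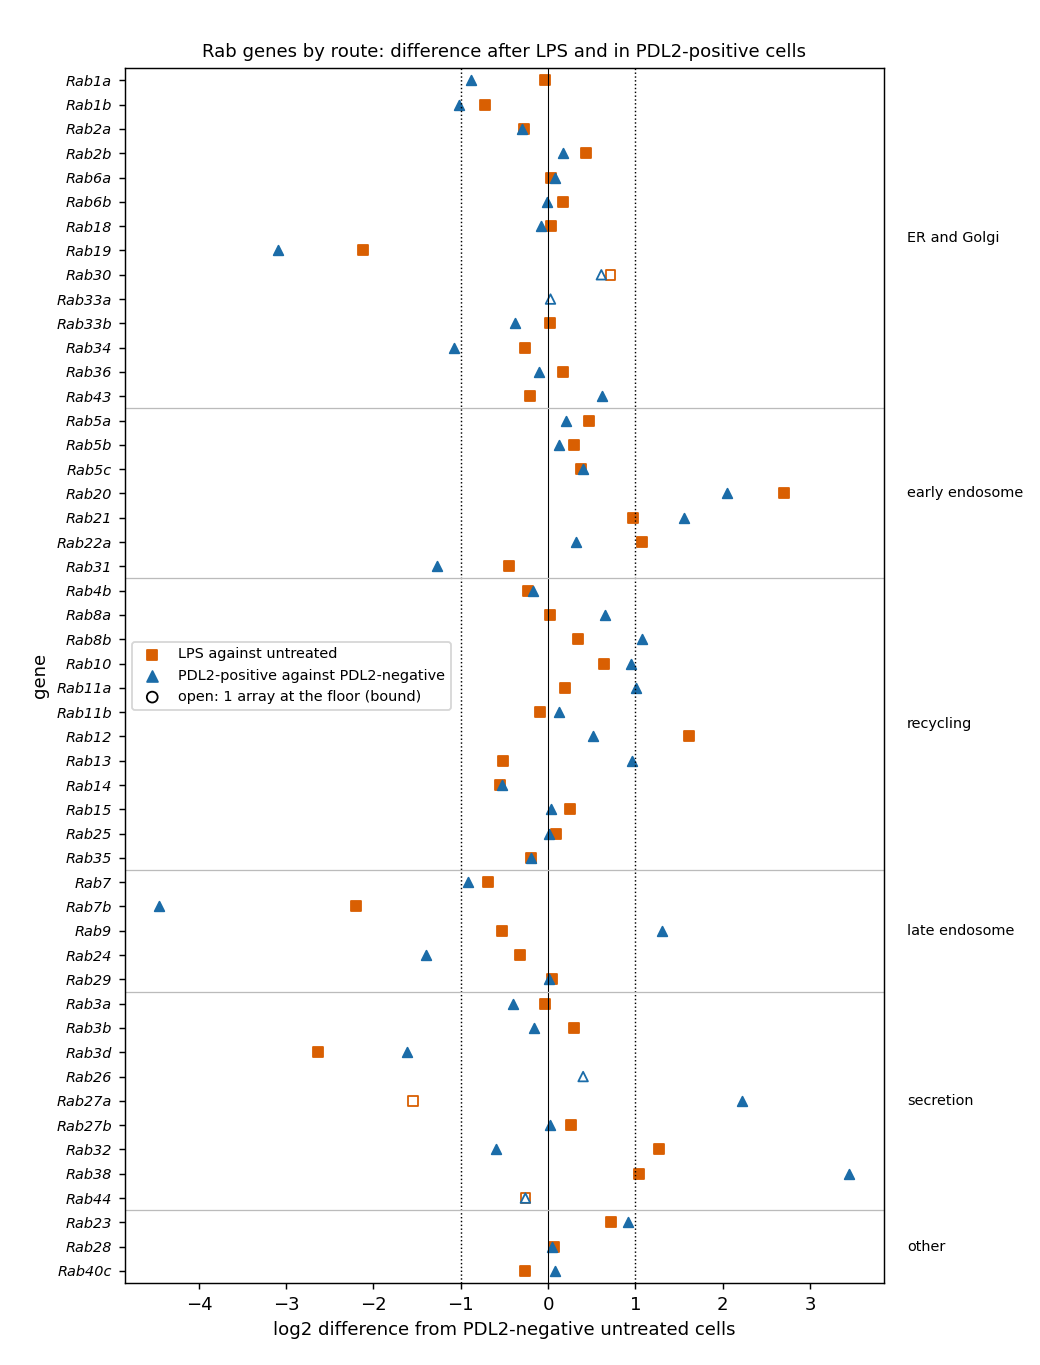
Points give the log2 difference from PDL2- untreated cells for each measured Rab gene after LPS (squares) and in PDL2+ cells (triangles), grouped by route, with dotted lines at 2-fold and open points where 1 array was at the floor. Rab7b reaches -4.45 and Rab38 3.45 in PDL2+ cells, and most other genes lie between the dotted lines.

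Among Rab genes of regulated secretion and lysosome-related organelles, 2 of 8 measured were higher and 2 lower after LPS (9.17% and 13.8% of all genes), and 2 of 9 were higher and 1 lower in PDL2+ cells (10.1% and 13% of all genes). Rab38, which with Rab32 builds lysosome-related organelles such as melanosomes, had signals of 6.57, 7.60 and 10.02. It was 11-fold higher in PDL2+ than in PDL2- untreated cells and 5.34-fold higher than in LPS cells. A second probe set of Rab38 gave 2.04 and 1.46. After LPS its difference was 1.04, but 0.85 with the deposited values, 0.87 with median centring and 0.59 by the second probe set, so the LPS call rests on the scaling and on 1 probe set.

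Rab32, the close relative of Rab38, had a different order, with signals of 10.96, 12.23 and 10.36. It was 2.41-fold higher after LPS and 3.64-fold lower in PDL2+ than in LPS cells, and its difference in PDL2+ against PDL2- untreated cells was -0.60. Rab32 was highest in LPS cells and Rab38 in PDL2+ cells. Both are activated by BLOC-3, an exchange factor made of Hps1 and Hps4, and bind the effector VARP, the product of Ankrd27. Hps1, Hps4 and Ankrd27 differed by 0.01, 0.71 and 0.23 in PDL2+ cells and by -0.78, -0.41 and -0.03 after LPS, none past 2-fold. For Hps1 the probe sets after LPS ran from -0.78 to 0.54.

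Rab27a, which docks secretory lysosomes and granules at the plasma membrane, separated PDL2+ from LPS cells most of all members. Its signals were 7.13 in PDL2- untreated cells, 5.42 (below the floor) in LPS cells and 9.35 in PDL2+ cells. It was at least 13.6-fold higher in PDL2+ than in LPS cells, 4.67-fold higher in PDL2+ than in PDL2- untreated cells, and at least 2.92-fold lower after LPS. The other probe sets of Rab27a were weaker. In PDL2+ cells 2 of them were above the floor there only, at 6.08 and 6.35, and gave differences of 0.50 and 0.77 as lower bounds. The paralog Rab27b gave 6.13, 6.39 and 6.15, all within 0.26 of each other, and its other 3 probe sets were below the floor.

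Rab27a has 2 start sites in the RefSeq table, and the window of the second, at chr9:73063898-73064197 (plus strand), is shown because it holds the CACGTG also found in Rab20 and Rab21, in capitals, its first base at -246 from the start.
Rab27a: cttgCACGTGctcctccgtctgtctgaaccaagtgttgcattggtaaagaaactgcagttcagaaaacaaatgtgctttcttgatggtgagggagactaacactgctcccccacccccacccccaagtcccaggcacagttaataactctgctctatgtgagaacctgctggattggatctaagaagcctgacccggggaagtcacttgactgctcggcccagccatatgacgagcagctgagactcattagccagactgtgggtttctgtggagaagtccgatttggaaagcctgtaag
The window of the first start site of Rab27a holds none of the motifs searched.

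Known partners of Rab27a, picked after the values of the members had been seen, were not uniformly higher. The effector gene Unc13d (Munc13-4) gave 7.17, 6.53 and 7.95 and was higher by 1.42 on the log2 scale in PDL2+ than in LPS cells, the order of arrays seen for Rab27a. Tbc1d10a, which encodes a GAP for Rab27, differed by 1.05 in PDL2+ cells. The effector gene Sytl1 was near the floor, at 5.96 in PDL2- untreated and 6.05 in LPS cells, and below it in PDL2+ cells (5.49). Its differences in PDL2+ cells were -0.38 against PDL2- untreated and -0.47 against LPS cells, both bounds and opposite in sign to those of Rab27a. The effector genes Sytl2, Sytl4 and Mlph were at the floor on all 3 arrays, and the exchange factor gene Madd differed by -0.18 in PDL2+ cells.

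Rab3d, a Rab of secretory granules, was highest in PDL2- untreated cells, with signals of 9.47, 6.84 and 7.85. It was 6.19-fold lower after LPS and 3.07-fold lower in PDL2+ cells. Its 3 probe sets above the floor all lay on the same side, from -2.63 to -1.39 after LPS and from -1.95 to -1.09 in PDL2+ cells. Rab3d was higher by 1.01 in PDL2+ than in LPS cells, but by 0.23 and 0.30 in the other probe sets. Among its paralogs, Rab3a gave 9.27, 9.24 and 8.87, Rab3b stayed close to the floor at 5.90, 6.19 and 5.74, and Rab3c was at the floor. Rab26 was above the floor in PDL2+ cells only (5.98), Rab44 in PDL2- untreated cells only (5.84), and Rab37 in none.

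**Figure D4:**
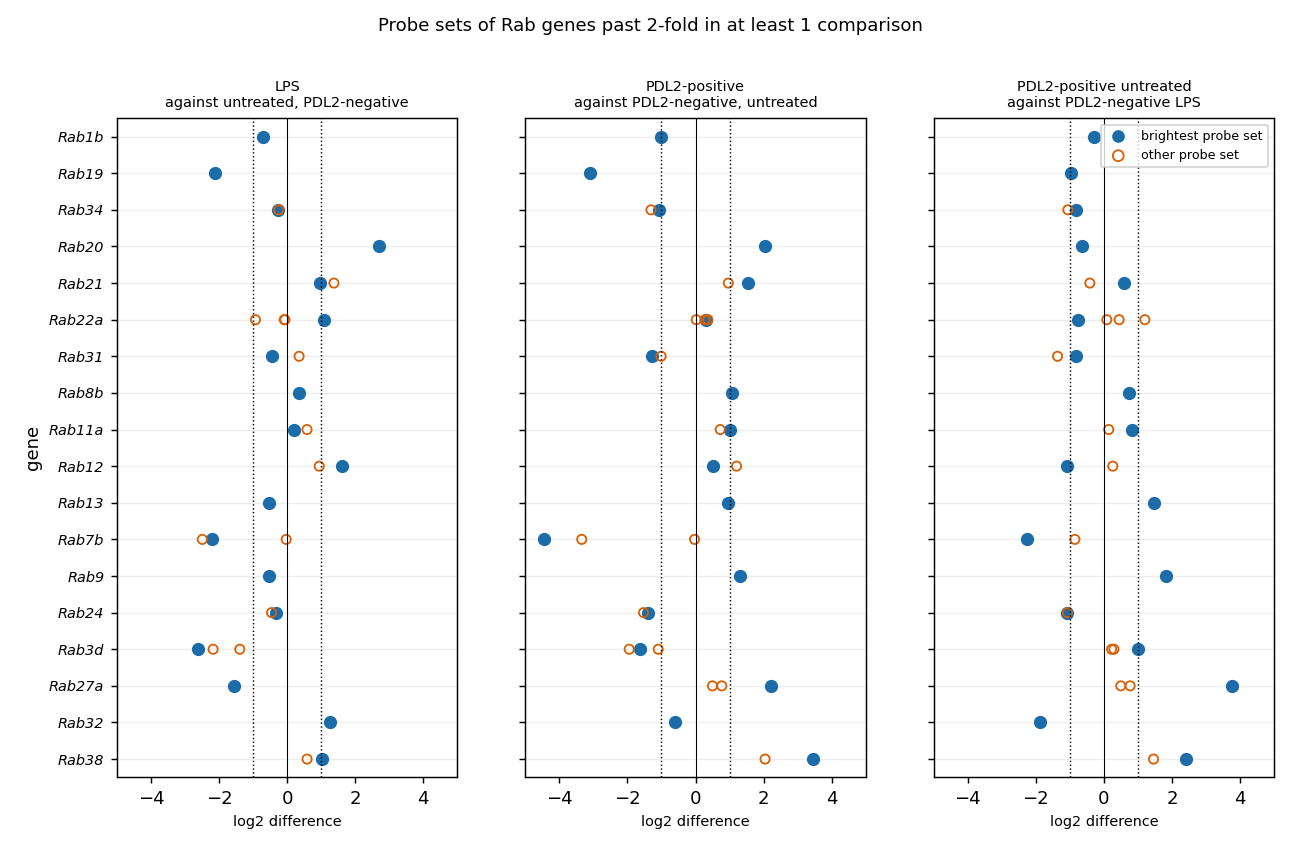
Each point is the log2 difference of 1 measured probe set, for the 18 Rab genes past 2-fold in at least 1 comparison, with filled points for the brightest probe set and open points for others. Probe sets of Rab3d, Rab24 and Rab34 lie on 1 side of 0 in PDL2+ against PDL2- untreated cells, and those of Rab22a straddle 0 after LPS.

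Where a called gene had 2 or more measured probe sets, all of them had the same sign for 4 of 5 genes after LPS, 9 of 9 in PDL2+ against PDL2- untreated cells and 5 of 6 in PDL2+ against LPS cells. The exceptions were Rab22a after LPS and Rab12 in the last comparison. A probe set above the floor on only 1 of the 2 arrays was counted as measured, and its sign follows from which array that was. This holds for dimmer probe sets of Rab27a and Rab7b in PDL2+ cells, so part of this agreement was set by the floor. The other called genes had 1 measured probe set, 4, 5 and 3 in the same order.

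Of the Rab genes of the endoplasmic reticulum and Golgi, 1 of 13 was lower after LPS and 3 of 14 in PDL2+ cells, beside 13.8% and 13% of all genes. None was higher in either comparison, beside 9.17% and 10.1%. In PDL2+ against LPS cells none of 14 was called, beside 15.6% higher and 12.6% lower of all genes. Rab19 had signals of 9.07, 6.95 and 5.98. It was 4.34-fold lower after LPS and 8.51-fold lower in PDL2+ cells, and lay close to the floor in PDL2+ cells. Rab1b, which drives transport from the endoplasmic reticulum to the Golgi, gave 10.38, 9.65 and 9.35 and was 2.03-fold lower in PDL2+ cells, and its paralog Rab1a gave 12.93, 12.89 and 12.05. A second probe set of Rab1a differed by -1.25 in PDL2+ cells, against -0.88 for the brightest. Rab34, which positions lysosomes and forms macropinosomes, gave 7.65, 7.39 and 6.57, 2.12-fold lower in PDL2+ cells, with -1.31 by its second probe set.

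The promoter of Rab19 is shown because it holds 2 overlapping matches to the interferon-response motif known as ISRE, both on the reverse strand with first bases at -10 and -4 from the start, in a gene that was lower after LPS. It lies at chr6:39381103-39381402 on the plus strand, inside the gene, which starts at 39380709 in RefSeq. The positions are counted from the start site of this window.
Rab19: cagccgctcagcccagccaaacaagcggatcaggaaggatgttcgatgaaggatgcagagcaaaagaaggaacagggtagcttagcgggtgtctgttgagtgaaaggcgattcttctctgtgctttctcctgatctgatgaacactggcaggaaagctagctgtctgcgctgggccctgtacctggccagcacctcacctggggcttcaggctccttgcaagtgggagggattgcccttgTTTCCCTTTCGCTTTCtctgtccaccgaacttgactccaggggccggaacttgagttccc
Rab19 was the only Rab gene with this motif, which 3.44% of all windows hold. Of the other motifs searched on both strands, the NF-kB motif was found in windows of Rab9, Rab15 and Rab28 (3 of 60 member windows, or 5%, against 1.63% of all). The AP-1 motif TGANTCA was found in those of Rab15, Rab34 and Rab39b (5% against 7.81%). The members' windows had a median GC content of 61.2%, against 52.7% over all windows. The shares of these motifs and of CACGTG were not adjusted for that and were not tested. A match is a description of these letters and not a binding site.

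The remaining Golgi and reticulum Rabs showed smaller differences. Rab2a, Rab2b, Rab6a, Rab6b, Rab18, Rab33b, Rab36 and Rab43 ran from -0.28 to 0.43 after LPS and from -0.38 to 0.62 in PDL2+ cells. Of these, Rab43 had a dimmer probe set at 1.16 and 1.74, past 2-fold where the brightest gave -0.21 and 0.62. Rab30 was at the floor in PDL2- untreated cells and at 6.29 and 6.19 in LPS and PDL2+ cells, at least 0.71 and 0.61 higher on the log2 scale. Rab33a was just above the floor in PDL2+ cells only (5.61). Among Rabs with other roles, Rab23, a regulator of Hedgehog signalling, differed by 0.72 and 0.91, Rab28 by 0.07 and 0.04 and Rab40c by -0.27 and 0.07. Rab39, Rab39b, Rab40b and Rab42 were at the floor.

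Genes that act on Rabs were then counted by list. Of 135 measured regulators and effectors, 16 were higher and 19 lower after LPS, 16 and 19 in PDL2+ against PDL2- untreated cells, and 20 and 15 in PDL2+ against LPS cells, beside the shares of all genes given above. The shares were 11.9% higher and 14.1% lower in each of the first 2 comparisons. The counts of each list below stand beside the same shares of all measured genes. These were 9.17% higher and 13.8% lower after LPS, and 10.1% and 13% in PDL2+ against PDL2- untreated cells. In PDL2+ against LPS cells they were 15.6% and 12.6%. No share of a list was tested.

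Among GAP genes, 7 of 35 were higher and 5 lower in PDL2+ cells. Tbc1d4, which encodes AS160, a GAP for exocytic Rabs such as Rab10, was 18.1-fold higher, with signals of 8.30, 9.52 and 12.47 and a second probe set at 1.70. Tbc1d8 was 10.3-fold higher and Rabgap1l 8.94-fold higher, with all of their measured probe sets at 3.16 or more. The lowest were Tbc1d16 (-1.86, but -0.07 by another probe set), Tbc1d2b (-1.56) and Sgsm3 (-1.26, a bound at the floor). After LPS 6 of 35 GAP genes were higher, led by Tbc1d9 (1.72), Rabgap1l (1.47, probe sets from -0.59 to 2.63) and Tbc1d4 (1.22, or 0.26 by another probe set), and 8 were lower, led by Tbc1d16 (-2.45, or -0.02 by another probe set), Tbc1d24 (-2.04, or 0.00) and Tbc1d5 (-1.87). In PDL2+ against LPS cells 9 of 34 were higher, led by Tbc1d24 (3.18, but 0.11 by another probe set), Tbc1d4 (2.96, or 1.44) and Tbc1d15 (2.57, with its other probe sets at 2.25 or more), and only Tbc1d9 was lower (-2.50).

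Exchange factor genes had 5 of 31 higher and 3 lower after LPS, and 2 of 32 higher and 6 lower in PDL2+ cells. Dennd3, which encodes an exchange factor for Rab12, was higher by 1.93 after LPS, with signals of 8.45, 10.38 and 8.68. The brightest probe set of Rab12 was also highest after LPS, and its second was highest in PDL2+ cells. Rab3ip (Rabin8, which activates Rab8) and Rin2, a Rab5 exchange factor, were higher by 1.80 and 1.73, and Rab3il1 (-2.30), Dennd4c (-2.05) and Als2cl (-2.02, a bound) were lower. In PDL2+ cells Dennd4a (2.42) and Dennd5a (1.45) were higher, and Rab3il1 (-3.0), Dennd4c (-2.97) and Rin2 (-2.11) were lowest. Dennd4a and Dennd4c both encode exchange factors for Rab10 and had opposite signs there. Partners, picked after the members' values had been seen, did not go 1 way with their Rab in PDL2+ cells. Rin3, which encodes an exchange factor for Rab31, differed by -1.35 beside -1.27 for Rab31. The Rab8 exchange factor genes Rab3il1 and Rab3ip differed by -3.0 and -0.12 beside 1.07 for Rab8b, and the Rab9 effector genes Gcc2 and Rabepk by -0.10 and 0.18 beside 1.30 for Rab9. In PDL2+ against LPS cells 3 of 32 were higher, Dennd4a (2.04), Als2cl (1.74, a bound) and Hps4 (1.12), and 7 lower, led by Rin2 (-3.84), Rab3ip (-1.92) and Dennd1a (-1.79). Other probe sets were short of 2-fold for Rab3ip (0.38 after LPS and -0.38 against LPS cells), Als2cl (-0.30 and 0.34) and Rab3il1 (-0.37 after LPS and in PDL2+ cells).

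Recycling and tethering effectors had 3 of 25 higher and 4 lower after LPS. Ehd1, an ATPase of recycling endosomes, was 14.9-fold higher, with all 4 probe sets at 3.31 or more, and Rab11fip1, an effector of Rab11, was 7.66-fold higher, followed by Micall2 (1.61, a bound). Rab11fip5, another Rab11 effector, was 10.8-fold lower, with signals of 11.73, 8.30 and 9.13, and Mical1 and Myo5a differed by -3.28 and -1.41. In PDL2+ cells 4 of 24 were higher, led by Ehd1 (2.37), Micall1 (1.80) and Rab11fip1 (1.22), and 4 lower, led by Ehd4 (-2.73), Rab11fip5 (-2.60) and Mical1 (-1.85). The Rab11 effector genes thus did not go 1 way: Rab11fip1 was lowest and Rab11fip5 highest in PDL2- untreated cells. In PDL2+ against LPS cells 3 of 25 were higher, Exoc4 (2.33), Micall1 (1.43) and Mical1 (1.43), and 4 lower, led by Ehd4 (-3.31), Rab11fip1 (-1.72) and Micall2 (-1.61, a bound). Other probe sets were short of 2-fold for Myo5a after LPS (-0.66), Rab11fip1 in PDL2+ cells (0.82) and Exoc4 against LPS cells (0.68).

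The list of late endosome effectors also holds the Rilp-like genes Rilpl1 and Rilpl2, whose place on this route was not tested. Of its 14 genes 1 was higher after LPS, Rilpl1 (2.37, with probe sets from 0.73 to 2.48), and 2 lower, Plekhm1 (-1.56) and Plin3 (-1.54). In PDL2+ cells Vps39, a subunit of the HOPS tether, and Fyco1, a Rab7 effector of vesicle transport, were higher by 1.65 and 1.18, and Rilpl2 (-1.97), Plekhm1 (-1.60) and Rilpl1 (-1.5, a bound, or -0.05 by another probe set) were lower. Against LPS cells Vps39 (2.38), Fyco1 (1.30, or -0.94 by another probe set) and Plin3 (1.06) were higher, and Rilpl1 (-3.87, a bound, or -0.79) and Rilpl2 (-1.34) lower. Among 10 early endosome effectors Appl1 was higher after LPS (1.29, with probe sets from 0.20 to 2.79) and in PDL2+ cells (1.03), none was lower in either, and Ankfy1 was lower in PDL2+ than in LPS cells (-1.56). Of 11 Golgi effectors only Bicd2 was called, at the threshold (-1.0) after LPS and with another probe set at 0.01, and of 3 measured secretory effectors only Unc13d was called, in PDL2+ against LPS cells.

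Of 6 genes for prenylation and Rab chaperones, Chml, an escort protein of Rab prenylation, was lower after LPS (-1.5) and in PDL2+ cells (-1.58), and the GDP dissociation inhibitor gene Gdi2 was higher by 1.02 in PDL2+ than in LPS cells. For contrast, the Arf and Arl genes, another family of small GTPases of membrane traffic, had 14 of 26 listed genes analysed here and 13 measured. None was called after LPS, Arl15 was lower in PDL2+ cells (-1.40, or -0.90 by another probe set), and Arl3 was higher in PDL2+ than in LPS cells (1.32). The difference between the Rab and Arf families was not tested.

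Markers of other cell types moved with the groups. All 7 macrophage markers analysed (of 8 listed) were lower in PDL2+ cells, where their summed linear signal was 1890, against 45026 in PDL2- untreated and 34542 in LPS cells, and all 4 monocyte markers were lower, with sums of 2092, 20964 and 15449 in the same order. None of these 11 markers was at the floor on all 3 arrays. Of the 18 called Rab genes, Rab1b, Rab7b, Rab19, Rab24, Rab31, Rab32 and Rab34 were lowest in PDL2+ cells. Rab8b, Rab11a, Rab12, Rab20, Rab21, Rab22a and Rab38 were lowest in PDL2- untreated cells. Any gene is lowest on 1 of the 3 arrays, and the share over all genes was not counted. The DC markers Zbtb46 and Flt3 were higher in PDL2+ than in PDL2- untreated cells, as given above. Of 7 neutrophil and granulocyte precursor markers 5 were lower after LPS and none was called in PDL2+ cells. Their sums were 18390, 7750 and 18518 in PDL2- untreated, LPS and PDL2+ cells. The called genes Rab3d, Rab9, Rab13 and Rab27a were lowest in LPS cells. In PDL2+ against PDL2- untreated cells Rab3d was 3.07-fold lower, Rab9 2.47-fold higher and Rab27a 4.67-fold higher. Rab13 was within 2-fold there, with a log2 difference of 0.97. Of 7 mast cell, basophil and eosinophil markers, Fcer1a, Ms4a2 and Epx were at the floor on all arrays and Kit was higher in PDL2+ cells (3.51). Cpa3, Mcpt8 and Prg2 differed by 0.24, 0.30 and -0.09 in PDL2+ against PDL2- untreated cells. The sums were 572, 639 and 1440 in PDL2- untreated, LPS and PDL2+ cells, with Kit the only marker of this list called. Of 5 lymphocyte and NK cell markers 4 were at the floor throughout (Cd3g, Cd79a, Ms4a1 and Ncr1), with sums of 182, 186 and 180. The part of these cell types in the Rab differences was not tested.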

How the data were processed

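Bone marrow DCs of 3 groups were profiled on 1 array each. The deposited values are log2 signals, 1 per probe set and array, made by the authors; their background correction, normalization and summary are not given in the sources used here. Of 38546 probe sets, 13 controls were left out and 38533 were quantile-normalized (Python 3.11.15, numpy 2.4.6, pandas 2.3.3). The annotation names 1 gene for 33987 probe sets, several for 449 (not used) and none for 4110; symbols were updated through Entrez numbers in RefSeq genes of GRCm38.p6 (33800 matched, all 59 Rab genes among them). The brightest probe set stood for each gene. Values under the median (5.58) were raised to it, and a gene was called at 2-fold. With 1 array per group no test was run. The calculation of calls was checked on simulated data, which says nothing of replicate error. The number of arrays limits the precision.

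Members past 2-fold in any comparison and their subfamily members are given with each value, and in each pathway list up to 3 called genes per direction. Members and lists were chosen with earlier results of these data known, and the Rab partners and promoter motifs after the members' values were seen. Alternatives were other normalizations, floors, probe set choices and fold thresholds. Promoter sequences are from RefSeq.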

Additional observations from a re-analysis of the deposited data

How the results depend on the processing

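The count of Rab genes higher after LPS was 5, and 3 with no further normalization, 3 with the second brightest probe set, 9 at 1.5-fold and 2 at 3-fold. In PDL2+ against PDL2- untreated cells the 7 higher became 4 with the second probe set, 13 at 1.5-fold and 3 at 3-fold, and the 7 lower became 3 at 3-fold. In PDL2+ against LPS cells the 5 higher became 2, 9 and 3 under the same settings, and the 4 lower became 10 at 1.5-fold and 2 at 3-fold. Fewer genes have a second probe set (25 members measured after LPS, beside 48), which by itself lowers the counts. The other counts stayed within 1.5 times, and the members' medians moved by less than the spread between probe sets under every alternative. That spread is one of single genes, so it is a loose limit for a median of many genes and does not show that the medians are stable. Of 32 called differences, 29 stayed past 2-fold in the same direction with no further normalization, 30 with median centring, 27 of the 29 computed with the floor at the 75th percentile, 32 with no floor, 25 of 31 with averaged probe sets and 10 of 20 with the second probe set. Signs turned for Rab22a after LPS (1.08, against -0.055 with averaged probe sets and -0.085 with the second) and for Rab12 in PDL2+ against LPS cells (-1.09, against 0.26 with the second). The cause was not tested. No paired analysis was possible because each group has 1 array. Signals near the floor limit the size of a difference that can be seen.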

Other observations

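Identical deposited values on all 3 arrays were found for 13 of the 129 Rab probe sets, 4 of which stood for their gene. These were Rab29 (9.73), Rab25 (6.07), Rab17 (5.17) and Rab39b (4.68), the last 2 below the floor. In Rab3a the weaker of 2 probe sets was identical (6.85), while the brighter gave a difference of -0.40 in PDL2+ cells. Why these values coincide was not tested.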
